A study of Mus musculus with 7 samples.

Results

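The complement system was followed through 34 genes for its components, regulators and receptors, chosen by gene name from the probes of the arrays. Of these, 33 had a probe among the 36492 genes on the arrays, and C4a had none under its own name. The livers came from 3 WT and 4 SHIVA mice, all female, 8 to 12 weeks old and fasted for 24 h, with 1 array per liver. WT mice were C57BL/6. SHIVA mice are descended from ENU-mutagenized males, were backcrossed to C57BL/6 females, and carry a missense mutation in the DNA-binding HMG domain of the transcription factor Sox17. The supporting methods state that every viable mutant was heterozygous. Every cell of a SHIVA mouse carries the mutation, so the arrays do not show in which cell type it acts. The level of Sox17 does not check the labels, since a missense change need not alter it: its log2 signal was 3.41 to 4.52 in WT and 4.46 to 4.76 in SHIVA livers. No fed mice were on the arrays. The values do not show how these genes respond to fasting.

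Complement is a cascade of plasma proteins that marks microbes and dying cells, recruits phagocytes and punctures membranes. In the classical route C1q binds its target and activates the proteases C1r and C1s. In the lectin route mannose-binding lectins do so with the MASP proteases. Both routes cleave C4 and C2, and the alternative route uses factors B and D and properdin. All of them cleave C3, after which C5 starts the assembly of C6, C7, C8 and C9 into a pore. Hepatocytes make most of the circulating components, while C1q and properdin come mainly from macrophages and other myeloid cells, factor D from fat, and C7 mainly from other cells than hepatocytes. A soluble set of inhibitors, among them C4bp, factor I and the C1 inhibitor, and a membrane-bound set, among them Cd55, Cd59a and Cr1l, hold the cascade in check on host cells.

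Of the 33 genes with a probe, 31 were tested, since Cfd and C5ar1 were not well above background on any array. None of the 31 passed an adjusted p of 0.05 in limma with Benjamini-Hochberg adjustment over all 20000 genes tested, where 0.375% of all genes passed. Fold changes are given throughout as log2 of SHIVA over WT, with the standard error (SE) from limma. They were above 0 for 28 of the 31 complement genes and below 0 for C8g, C7 and Cd59a, while 48.8% of all genes tested were above 0. The median log2 fold change was 0.31 over the complement genes and -0.0074 over all genes tested. At an unadjusted p under 0.05 in limma, 9 complement genes were higher in SHIVA livers, where 7.24% of all genes were, and 0 were lower, where 6.1% were. By the methods' t-test, 7 reached an unadjusted p under 0.05 and 0 passed after adjustment. For 8 of the 31 genes (C2, C3, C8a, C8b, C9, Cfi, Masp1 and Cr1l) all 4 SHIVA livers were above all 3 WT livers, as for 6.14% of all genes tested. Of 5 other settings, 75th percentile scaling, the mean signal, normexp and the authors' table give each mouse another value for every gene. The mean of a gene's probes does so only for genes with more than 1 probe. C2, C8b, C9, Cfi and Cr1l had 1 probe each, so that setting could not make their groups overlap. The groups of C3 overlapped in 4 of the 5 settings, those of Masp1 in 2 and those of the other 6 genes in 0. For C7 all SHIVA livers were below all WT livers, as for 6.02% of all genes. The genes of a list vary together from mouse to mouse, so these shares carry no test of the list.

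RefSeq promoters, from 250 bases before to 50 bases after the start of the transcript on GRCm38.p6, were at hand for 23 of the 34 genes. The promoters of the 5 genes below are shown because they are those, among the 8 with every SHIVA liver above every WT liver, that have an entry. Capitals mark letters that match the STAT motif TTCNNNGAA or the C/EBP motif TTGCNNAA on either strand, motifs of factors that act on liver genes in inflammation.
C8a, chr4:104876349-104876648, reverse strand: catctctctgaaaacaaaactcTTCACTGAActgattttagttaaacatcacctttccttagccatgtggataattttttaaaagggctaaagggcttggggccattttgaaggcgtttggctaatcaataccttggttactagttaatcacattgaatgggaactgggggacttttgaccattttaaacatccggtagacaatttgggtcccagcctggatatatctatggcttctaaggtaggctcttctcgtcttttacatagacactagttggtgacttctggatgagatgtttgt
C8b, chr4:104766067-104766366, forward strand: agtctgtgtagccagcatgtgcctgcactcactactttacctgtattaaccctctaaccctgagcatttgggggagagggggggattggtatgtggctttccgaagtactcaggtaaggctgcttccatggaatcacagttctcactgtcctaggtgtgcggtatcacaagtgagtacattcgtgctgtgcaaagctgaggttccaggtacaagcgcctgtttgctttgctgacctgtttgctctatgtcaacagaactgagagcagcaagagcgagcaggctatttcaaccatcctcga
C9, chr15:6445096-6445395, forward strand: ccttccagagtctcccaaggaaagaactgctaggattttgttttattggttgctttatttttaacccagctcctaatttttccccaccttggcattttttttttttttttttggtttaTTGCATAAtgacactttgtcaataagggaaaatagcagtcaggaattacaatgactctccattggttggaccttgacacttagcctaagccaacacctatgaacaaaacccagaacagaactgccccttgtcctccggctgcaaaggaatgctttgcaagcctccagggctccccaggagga
C3, chr17:57228087-57228386, reverse strand: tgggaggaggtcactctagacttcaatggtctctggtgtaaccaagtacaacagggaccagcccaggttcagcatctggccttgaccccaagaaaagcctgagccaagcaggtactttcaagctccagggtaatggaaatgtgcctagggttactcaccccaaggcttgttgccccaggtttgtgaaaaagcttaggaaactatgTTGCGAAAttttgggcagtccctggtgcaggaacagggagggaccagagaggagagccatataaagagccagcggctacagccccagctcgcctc
Cr1l, chr1:195131521-195131820, reverse strand: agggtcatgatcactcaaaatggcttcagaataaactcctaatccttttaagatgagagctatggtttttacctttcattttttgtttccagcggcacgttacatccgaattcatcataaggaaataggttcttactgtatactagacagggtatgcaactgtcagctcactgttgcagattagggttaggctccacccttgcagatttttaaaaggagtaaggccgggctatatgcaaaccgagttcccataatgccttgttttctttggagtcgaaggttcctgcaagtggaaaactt

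The C8a promoter held 1 STAT match, which began 228 bases before the start, and the promoters of C9 and C3 held 1 C/EBP match each, which began 132 and 45 bases before it. The promoters of C8b and Cr1l held no match to either motif, nor to the NF-kB motif GGGNNTTTC, the HNF4 motif CAAAGTCCA or the Sox motif ATTGTT, searched on both strands. Among the 23 genes, 4 promoters held the STAT motif (C1ra, C8a, Masp2 and Vtn), against 8.3% of all 32851 promoters. The C/EBP motif stood in 5 (C1ra, C1rl, C1s, C3 and C9), against 10.8% of all. The NF-kB motif stood in 1, that of C3ar1, against 4.36%. The HNF4 motif (0.475% of all promoters) and the Sox motif (10.7%) were in none of the 23. In C1ra a STAT and a C/EBP match began 32 and 16 bases after the start and did not overlap. A match is a run of letters and not a measured binding site.

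**Figure D1:**
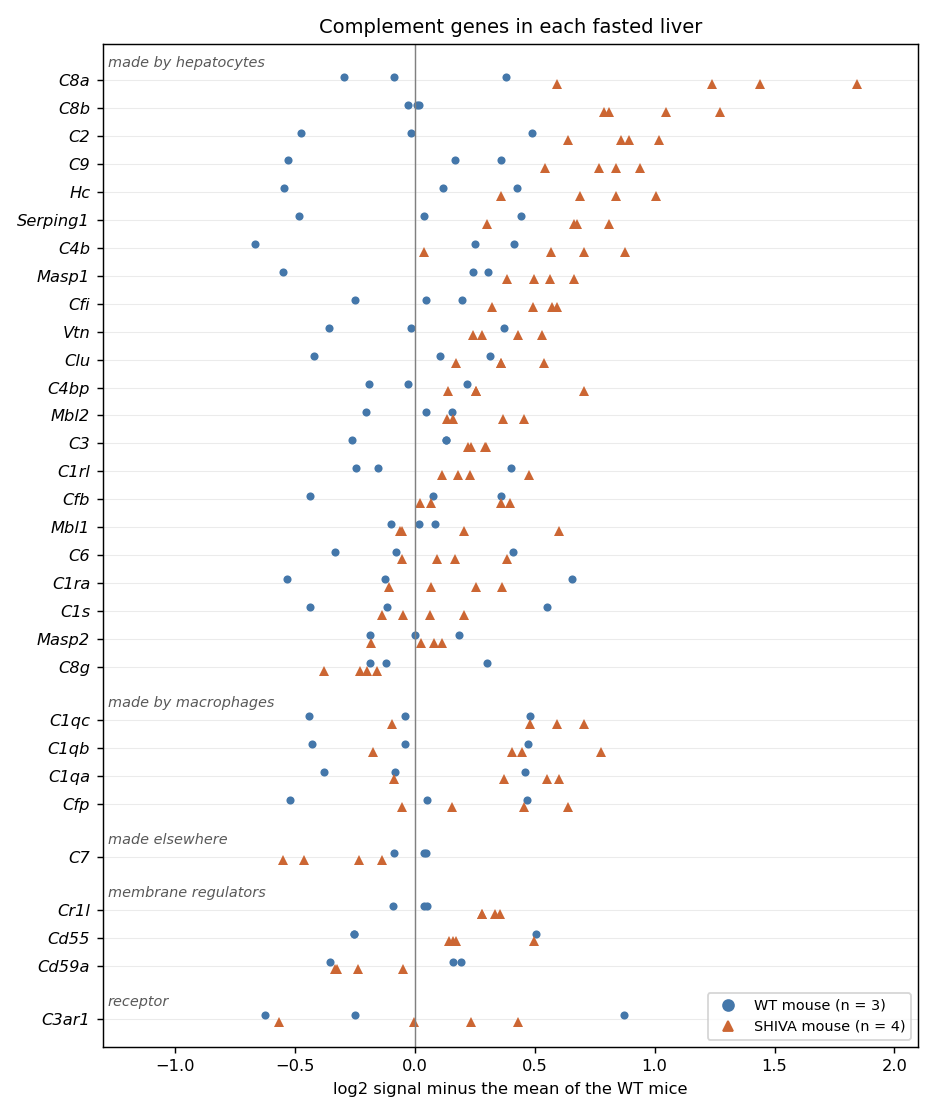
Log2 signal of the 31 complement genes tested, on the horizontal axis as the difference from the mean of the 3 WT mice, with WT mice as circles and SHIVA mice as triangles. In 8 genes, C8a and C8b foremost, the triangles lie to the right of every circle, and in C7 they lie to the left.

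The largest differences among the 31 genes were those of C8a and C8b, at the pore-forming end of the cascade. That of C2, from the classical and lectin routes, came next (0.85). C8a and C8b encode the alpha and beta chains of C8, which insert the complex into the membrane. The log2 signal of C8a was 9.77, 9.98 and 10.45 in the WT livers and 11.51, 11.91, 11.31 and 10.66 in the SHIVA livers, so that SHIVA replicate 4 lay just above the highest WT liver. The log2 fold change was 1.28 ± 0.30 (SE, 2.43-fold, adjusted p = 0.138 from limma). A second C8a probe gave 1.21 ± 0.32 (SE, adjusted p = 0.183 from limma), with overlapping groups. C8b measured 10.44, 10.49 and 10.48 in WT and 11.52, 11.74, 11.28 and 11.26 in SHIVA livers. The WT livers lay closer together for C8b than the SHIVA livers, with SDs of 0.024 and 0.23, and the gap of 0.77 between the groups was wider than the range within either. Its log2 fold change of 0.98 ± 0.16 (SE, 1.97-fold) missed the threshold narrowly (adjusted p = 0.0547 from limma). It passed in 6 of 18 other settings, among them the authors' normalized table, with log2 fold changes from 0.88 to 1.04 and adjusted p values from 0.014 to 0.203.

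The probes of these genes lie within 11.4 kb of chromosome 4 of mm9. That of C8b is on the forward strand from 104477094 to 104477153, and that of C8a on the reverse strand from 104488479 to 104488538. C8g, which encodes the small lipocalin chain that completes the same protein, lies on chromosome 2 (probe from 25354176 to 25354235). In WT livers it averaged 15.66 ± 0.26 (SD, n = 3) and in SHIVA livers 15.42 ± 0.095 (SD, n = 4), with a log2 fold change of -0.24 ± 0.16 (SE, adjusted p = 0.579 from limma). Its second probe gave -0.24 as well, with every SHIVA liver below every WT liver. Without WT replicate 1 the log2 fold change of C8g was -0.088, and its difference from those of C8a and C8b was not tested.

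C9, which polymerizes into the wall of the pore, measured 9.81, 9.11 and 9.999 in WT and 10.58, 10.18, 10.48 and 10.41 in SHIVA livers (probe on chromosome 15 from 6433127 to 6433186). The lowest value was that of WT replicate 2, and the groups did not overlap. The log2 fold change was 0.77 ± 0.22 (SE, 1.71-fold, adjusted p = 0.216 from limma), and 0.51 without WT replicate 2. Hc, the mouse gene for C5, measured 13.40, 14.06 and 14.37 in WT and 14.78, 14.95, 14.64 and 14.30 in SHIVA livers, where SHIVA replicate 4 was below WT replicate 3. Its log2 fold change was 0.72 ± 0.25 (SE, adjusted p = 0.270 from limma), and 0.45 without WT replicate 1. C6, which binds C5 once it is cleaved, differed by less than the spread between WT livers (0.15 ± 0.20 SE), and by -0.017 without WT replicate 1.

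C7, which anchors the growing complex to the membrane, had a dim probe. It measured 4.80, 4.94 and 4.93 in WT and 4.76, 4.43, 4.34 and 4.66 in SHIVA livers, while the lowest signals counted as above background were 3.11 to 3.54 on the 7 arrays. All SHIVA livers were below all WT livers, with a log2 fold change of -0.35 ± 0.15 (SE, adjusted p = 0.381 from limma). With the mean spot signal, with normexp background correction and in the authors' table the groups overlapped.

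**Figure D2:**
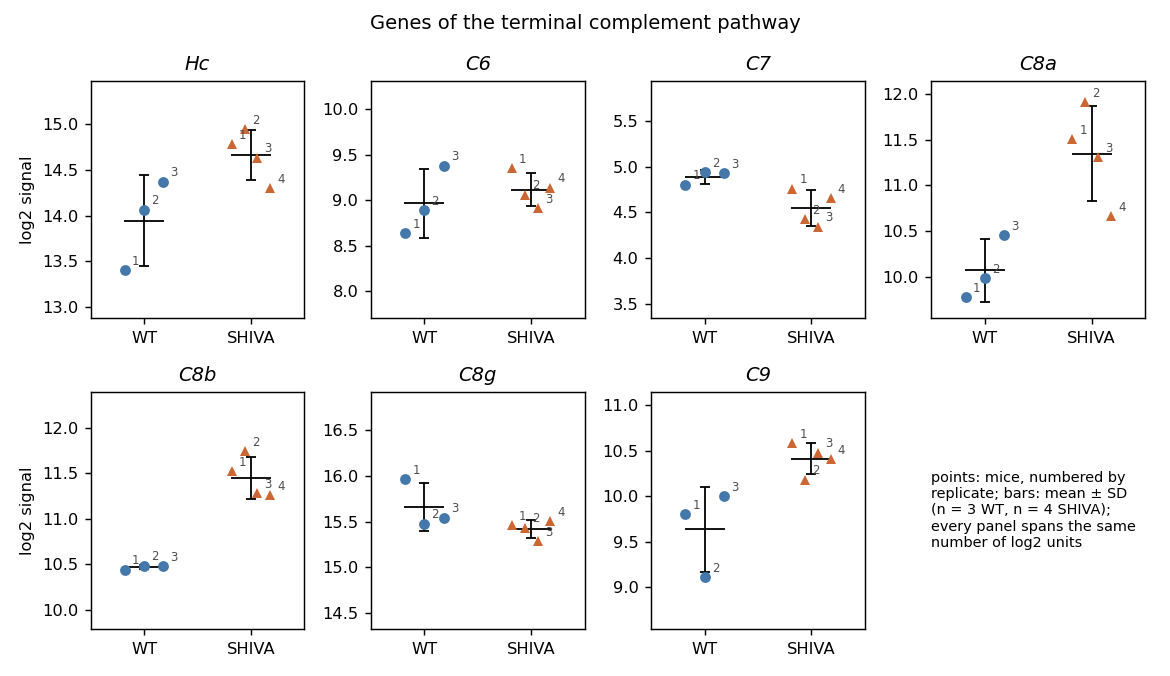
Log2 signal of the 7 genes of the terminal pathway in each mouse, WT as circles and SHIVA as triangles, numbered by replicate, with bars for the mean ± SD (n = 3 WT, n = 4 SHIVA). C8a, C8b and C9 are higher in all SHIVA mice, C7 is lower in all, and C8g and C6 overlap between the groups.

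C2 and C4b, from which the classical and lectin routes build their C3-cleaving enzyme, both had higher means in SHIVA livers. C2 measured 12.10, 12.56 and 13.07 in WT and 13.47, 13.60, 13.44 and 13.22 in SHIVA livers. The SHIVA livers lay within 0.38 of each other, above the highest WT liver, while the WT livers spread over 0.96. The log2 fold change was 0.85 ± 0.23 (SE, 1.81-fold, adjusted p = 0.189 from limma), and without WT replicate 3 it was 1.099 and passed the threshold (adjusted p = 0.039 from limma, against 0.445 at most over 18 settings). C4b measured 14.13, 15.05 and 15.21 in WT and 15.67, 15.50, 15.36 and 14.84 in SHIVA livers. Its groups overlapped (0.55 ± 0.30 SE, adjusted p = 0.480 from limma), and without WT replicate 1 the log2 fold change was 0.21. The probe for C4b is also annotated to its near-identical neighbour C4a, so the signal cannot be assigned to either paralog.

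The proteases at the head of the classical route showed little difference. C1ra had a log2 fold change of 0.14 ± 0.27 (SE), C1s of 0.02 ± 0.23 (SE) and C1rl, a related serine protease, of 0.25 ± 0.19 (SE). All had overlapping groups and adjusted p values between 0.628 and 0.981 from limma. Without WT replicate 1, C1ra and C1s measured -0.12 and -0.20, and C1s also turned below 0 without WT replicate 2 or SHIVA replicate 3, at -0.037 and -0.041, so the signs depended on single mice. In each of the genes WT replicate 3 was the highest WT liver, at 13.46 for C1ra and 14.23 for C1s, above every SHIVA liver.

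In the lectin route, Mbl1 and Mbl2 encode the mannose-binding lectins that recognise microbial sugars. In WT livers Mbl1 averaged 11.48 ± 0.092 (SD, n = 3) and in SHIVA livers 11.66 ± 0.31 (SD, n = 4). For Mbl2 these values were 15.48 ± 0.18 (SD, n = 3) and 15.76 ± 0.16 (SD, n = 4). Neither difference, 0.17 and 0.28, separated the groups. Masp1, a protease gene of this route, measured 9.52, 10.31 and 10.38 in WT and 10.63, 10.57, 10.46 and 10.74 in SHIVA livers. Its groups did not overlap, but WT replicate 1 stood well below the others, and the log2 fold change of 0.53 ± 0.22 (SE, adjusted p = 0.355 from limma) was 0.25 without it. The other Masp1 probe, on chromosome 16 from 23452460 to 23452519, gave -0.25 ± 0.42 (SE), with SHIVA replicate 2 at 7.02 and the other mice between 8.21 and 8.81. The estimates of the probes therefore differ in sign. On the other probe the WT livers measured 8.21, 8.75 and 8.70. The SHIVA livers besides replicate 2 measured 8.59, 8.81 and 8.79, so the negative sign rests on that 1 mouse.

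Masp2, the protease that cleaves C4 and C2 in the lectin route, had a log2 fold change of 0.01 ± 0.15 (SE). A further probe of Masp2, annotated to another RefSeq transcript of the gene, gave 0.33 ± 0.14 (SE, adjusted p = 0.365 from limma). On that probe the WT livers measured 7.11, 7.24 and 7.11 and the SHIVA livers 7.66, 7.45, 7.31 and 7.53, without overlap.

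C3, the protein on which all routes meet, measured 17.55, 17.94 and 17.94 in WT and 18.10, 18.10, 18.03 and 18.04 in SHIVA livers (probe on chromosome 17 from 57343416 to 57343475). The SHIVA livers were all above the WT livers and close together, and the gap to the highest WT liver was 0.089. The log2 fold change was 0.26 ± 0.15 (SE, adjusted p = 0.505 from limma), 0.13 without WT replicate 1, and the groups overlapped on the second C3 probe. Cfb, which encodes factor B of the alternative route, differed by 0.21 ± 0.21 (SE) with overlap, and by -0.0065 without WT replicate 1. Cfd, the gene for factor D or adipsin, was not well above background in any liver, with log2 signals of 1.101 to 1.61. Of 10 marker genes of fat, Pparg, Fabp4 and Lipe were above background in all 7 livers, Slc2a4 in 5, Cidec in 3, Adipoq and Cidea in 1 each, and Plin1, Lep and Retn in 0. The mean log2 signal of the 5 that were tested ran from 6.18 to 7.11 in WT and from 5.87 to 6.75 in SHIVA livers. Slc2a4 and Cidec were dim in some livers, so these means do not measure a group difference. Lipe, a lipase gene, was lower in SHIVA livers without overlap, as were 6.02% of all genes tested (-0.72, adjusted p = 0.225 from limma). Cidec, well above background in 2 of 3 WT and 1 of 4 SHIVA livers, had overlapping groups (-2.79, adjusted p = 0.277 from limma). So had Pparg (-0.11, adjusted p = 0.813 from limma). For Fabp4, a fatty acid carrier gene, the groups overlapped (0.81, adjusted p = 0.210 from limma). Slc2a4, a glucose transporter gene, was well above background in 1 of 3 WT and 4 of 4 SHIVA livers. Its WT signals of 3.12, 3.70 and 3.86 lay near the lowest counted as above background, so its fold change is not given. The part of fat tissue in these values was not tested.

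Among the soluble inhibitors, Cfi, which encodes the protease that degrades C3b and C4b, measured 13.77, 14.06 and 14.21 in WT and 14.51, 14.59, 14.61 and 14.34 in SHIVA livers. The groups were apart, with a log2 fold change of 0.50 ± 0.16 (SE, 1.41-fold, adjusted p = 0.242 from limma). Serping1, the C1 inhibitor gene, had a log2 fold change of 0.61 ± 0.23 (SE, adjusted p = 0.305 from limma) on its main probe and 0.59 on the other, and SHIVA replicate 4 at 15.44 was below WT replicate 3 at 15.58. C4bp, which encodes a cofactor for factor I, averaged 13.80 ± 0.21 (SD, n = 3) in WT livers and 14.14 ± 0.25 (SD, n = 4) in SHIVA livers. Vtn and Clu, which encode vitronectin and clusterin and block the terminal complex in the fluid phase, differed by 0.37 and 0.36. Without WT replicate 1 the log2 fold changes were 0.37 for Serping1, 0.19 for Vtn and 0.15 for Clu. For C4bp, Vtn and Clu the groups overlapped, with adjusted p values between 0.458 and 0.489 from limma.

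Of the membrane regulators, Cr1l encodes Crry, the rodent inhibitor of the C3-cleaving enzymes. It measured 9.58, 9.46 and 9.60 in WT and 9.88, 9.83, 9.90 and 9.83 in SHIVA livers, with little spread in either group. The difference was small but without overlap (0.31 ± 0.13 SE, 1.24-fold, adjusted p = 0.339 from limma). Cd55, the decay-accelerating factor gene, measured 7.43, 6.68 and 6.68 in WT and 7.10, 7.43, 7.09 and 7.07 in SHIVA livers, so WT replicate 1 and SHIVA replicate 2 stood at the same height above the rest. Its log2 fold change was 0.24 ± 0.22 (SE, adjusted p = 0.690 from limma). Cd59a, which stops C9 from polymerizing, had a log2 fold change of -0.23 ± 0.18 (SE, adjusted p = 0.623 from limma), with overlap.

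The receptors for the cleavage peptides C3a and C5a are genes of myeloid cells. C3ar1 was dim and spread over 4.57 to 6.07 in WT and 4.63 to 5.63 in SHIVA livers. Its log2 fold change was 0.02 ± 0.37 (SE), and -0.29 without WT replicate 2. C5ar1, at 1.09 to 2.52, was not well above background in any liver.

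**Figure D3:**
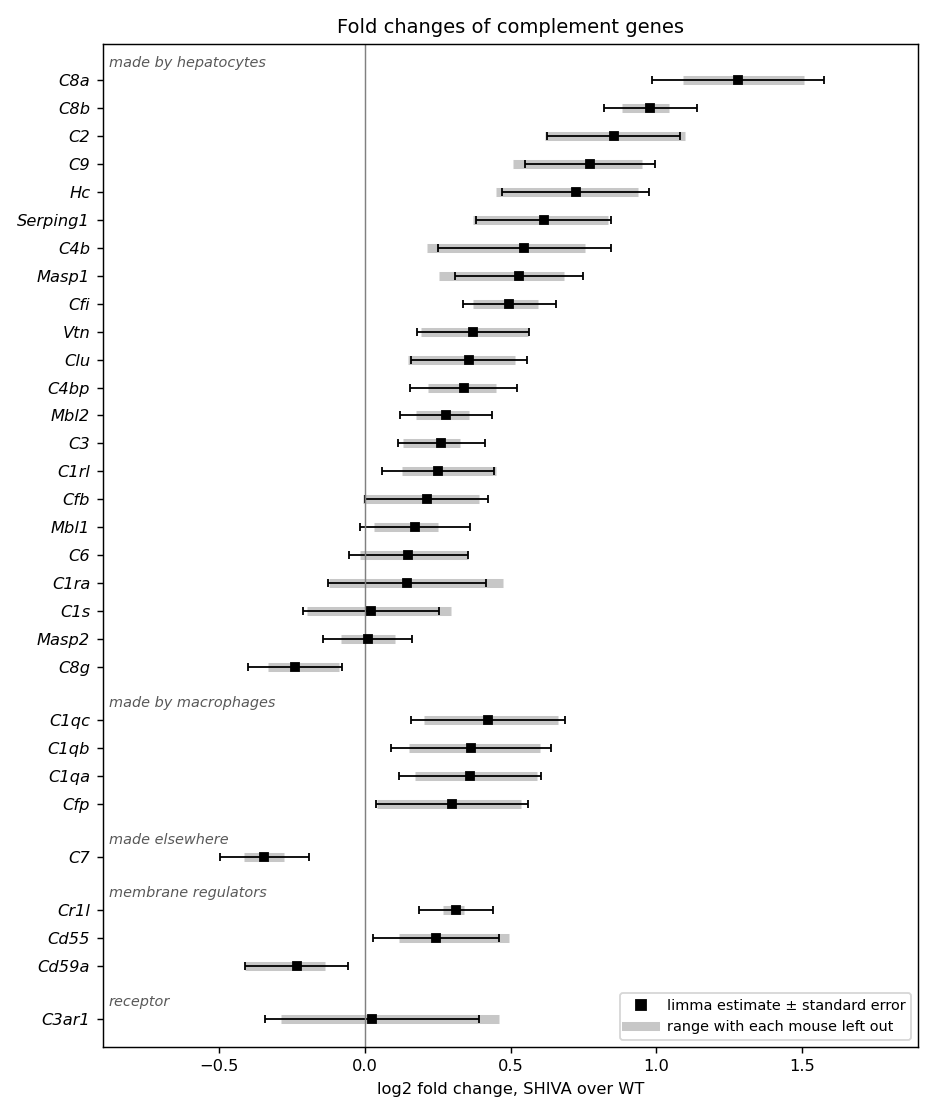
Log2 fold change of SHIVA over WT for the 31 complement genes tested (squares, with the standard error from limma; n = 3 WT and 4 SHIVA mice), and the range of the estimate when each mouse in turn was left out (grey bars). The largest estimates are those of C8a (1.28), C8b (0.98) and C2 (0.85), and the grey bars of C1ra, C1s, C6, Cfb, Masp2 and C3ar1 cross 0.

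The components made by macrophages resembled each other in the order of the mice. In the list means this order was shared in part with the hepatocyte-made genes. Both lists had WT replicate 3 as the highest WT liver and the SHIVA livers in the same order, with replicate 4 lowest. The lowest of all livers was WT replicate 2 for the macrophage-made and WT replicate 1 for the hepatocyte-made genes. The chains of C1q are encoded by C1qa, C1qb and C1qc, whose probes lie within 15.9 kb on chromosome 4. C1qa measured 11.31, 11.02 and 11.85 in WT and 11.95, 11.99, 11.77 and 11.31 in SHIVA livers. C1qb measured 11.50, 11.12 and 12.02 in WT and 11.99, 12.32, 11.95 and 11.37 in SHIVA livers. C1qc measured 10.79, 10.39 and 11.31 in WT and 11.54, 11.31, 11.43 and 10.74 in SHIVA livers. Cfp, the properdin gene on chromosome X, measured 11.87, 11.31 and 12.30 in WT and 12.47, 12.28, 11.98 and 11.77 in SHIVA livers. In 4 of these 4 genes WT replicate 2 was the lowest of the 7 livers, WT replicate 3 the highest WT liver and SHIVA replicate 4 the lowest SHIVA liver.

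The log2 fold changes of the C1q chains and properdin were 0.36, 0.36, 0.42 and 0.30 (standard errors 0.24 to 0.27, adjusted p values 0.547 to 0.682 from limma). The groups separated in 0 of 4, where 6.14% of all genes were higher and 6.02% lower without overlap. The median of the 4 was 0.36, against 0.16 without WT replicate 2 and 0.59 without WT replicate 3. Markers of Kupffer cells, the macrophages of the liver, were read beside them. Of 10 such markers, all tested, 9 had a log2 fold change above 0, with a median of 0.41, and the exception was Cd163 at -1.33. The mean log2 signal of the marker list was 9.58, 9.21 and 10.28 in WT and 10.22, 10.54, 10.002 and 9.67 in SHIVA livers. In the same mice the mean of C1qa, C1qb, C1qc and Cfp was 11.37, 10.96 and 11.87, and 11.99, 11.98, 11.78 and 11.30. Both lists had WT replicate 2 lowest of all and SHIVA replicate 4 lowest of the SHIVA livers. In whole liver, more cells of a type and more RNA per cell cannot be told apart, and the part of the macrophages in these values was not tested. Neutrophils also hold properdin. Of their markers, Mpo, Ltf and Ngp were well above background in 0 of 3 WT and 3 of 4 SHIVA livers. These genes passed the filter only through SHIVA livers, so the list mean does not measure a difference between the groups. Among markers above background in all 7 livers, the log2 fold changes were 1.02 for S100a8, 1.04 for S100a9, 1.13 for Camp and -0.04 for Elane. The groups overlapped in each, with adjusted p values of 0.342 to 0.944 from limma.

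Among the 22 tested genes for secreted proteins of hepatocytes, 21 had a log2 fold change above 0, as had 48.8% of all genes tested. Their median was 0.35, against -0.0074 over all genes. In 7 of the 22 every SHIVA liver lay above every WT liver, as for 6.14% of all genes. The mean log2 signal over these 22 genes was 12.92, 13.17 and 13.51 in WT and 13.69, 13.67, 13.62 and 13.47 in SHIVA livers, so the SHIVA livers lay close together and SHIVA replicate 4 was just below the highest WT liver. WT replicate 1 was the lowest of all 7 livers in 18 of the 22 genes, and WT replicate 3 the highest WT liver in 20. The median was 0.20 without WT replicate 1 and 0.49 without WT replicate 3. SHIVA replicate 4 was the lowest SHIVA liver in 10 of the 22. The SD was larger among WT than among SHIVA livers in 26 of the 31 complement genes (median SD 0.38 and 0.18), and in 55.3% of all genes tested (median SD 0.25 and 0.23). Without WT replicate 3 the groups separated upwards in 17 complement genes (14.6% of all genes under that setting), and without SHIVA replicate 4 in 14 (10.4% of all genes).

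Hepatocyte markers did not follow the same order of mice. The mean over 10 of them, all tested, was 16.07 to 16.33 in WT and 16.07 to 16.41 in SHIVA livers, with a median log2 fold change of 0.03. The list of 20 acute phase genes, which hepatocytes turn on in inflammation, averaged 13.24, 13.17 and 13.58 in WT and 14.03, 14.59, 13.91 and 13.47 in SHIVA livers. Of these genes 19 had a log2 fold change above 0, with a median of 0.49. In 4 the groups separated upwards, as for 6.14% of all genes tested. The adjusted threshold was passed by 0 of the 20, where 0.375% of all genes passed. SHIVA replicate 4 was the lowest SHIVA liver in the mean of this list and in that of hepatocyte-made complement, and was below WT replicate 3 in both. SHIVA replicate 2 was the highest in the mean of the acute phase genes. In the complement mean it stood at 13.67, next to SHIVA replicate 1 at 13.69. It was the highest of the 7 livers in 8 of the 22 hepatocyte-made genes, more often than any other liver. The part of an acute phase state in the complement values was not tested.

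**Figure D4:**
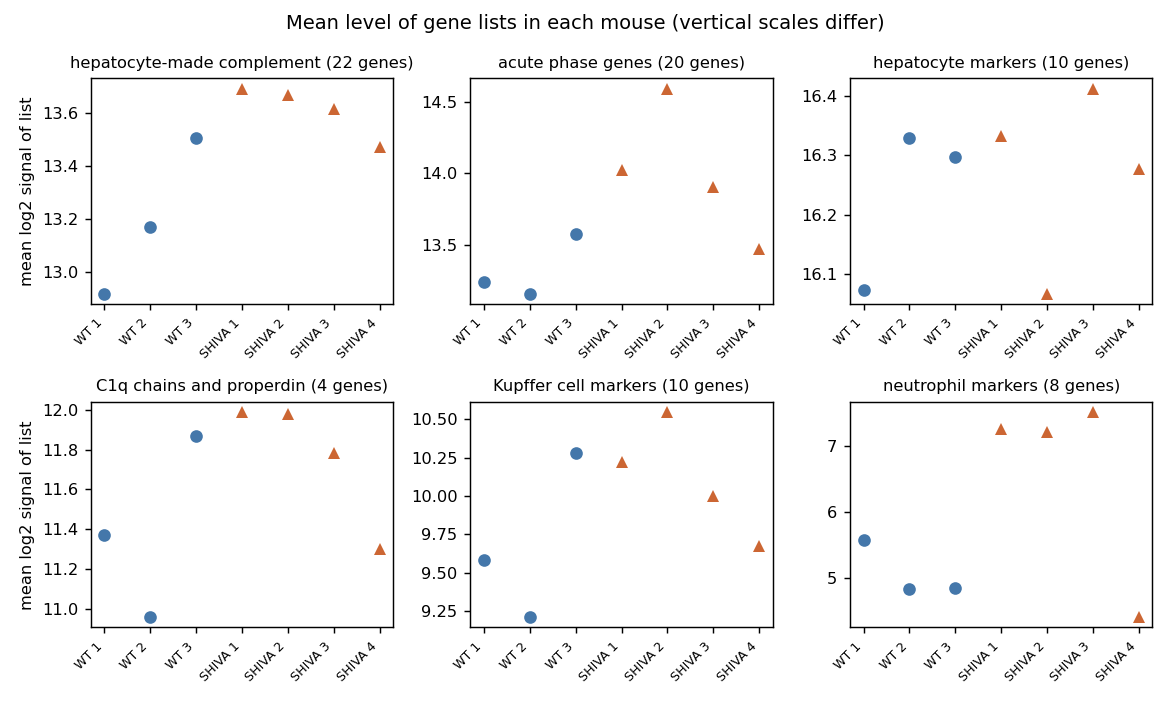
Mean log2 signal of 6 gene lists in each mouse, WT as circles and SHIVA as triangles, each panel with its own vertical scale. SHIVA replicate 4 is the lowest SHIVA mouse for both complement lists and for the acute phase, Kupffer cell and neutrophil lists. The neutrophil list includes Mpo, Ltf and Ngp, which were well above background in 0 of 3 WT livers, so its means do not measure a group difference.

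Of the 33 genes with a probe, 15 stood in 6 chromosomal neighbourhoods, defined by gaps under 500 kb between probes. In the complement cluster on chromosome 17 of mm9 (34865328 to 34999634), the log2 fold changes of C4b, Cfb and C2 were 0.55, 0.21 and 0.85, and only C2 separated the groups. The 3 C1q genes lay between 0.36 and 0.42. C1rl, C1ra and C1s, within 20.3 kb on chromosome 6, lay between 0.02 and 0.25. C8a and C8b, both near 1, were the only neighbourhood in which every gene separated the groups. C6 and C7 on chromosome 15 had opposite signs, and Cd55 and C4bp on chromosome 1 measured 0.24 and 0.34.

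Beyond these genes, 25 further genes of the pathway were looked up. Of these 24 had a probe and 21 were tested. Again 0 passed the adjusted threshold in limma, 18 had a log2 fold change above 0, and the median was 0.11. At an unadjusted p under 0.05 in limma, 2 of the 21 were higher (Cr2 and Itgax), where 7.24% of all genes were, and 1 was lower (Itgam), where 6.1% were. Cr2, a complement receptor gene, Colec11, a collectin gene, and Cpb2, the gene for a carboxypeptidase that inactivates C3a and C5a, were higher without overlap, at 0.62, 0.28 and 0.35, as were 6.14% of all genes. Receptor genes of phagocytes differed in sign. Itgax, an integrin alpha chain of complement receptors, had a log2 fold change of 1.46 ± 0.39 (SE, adjusted p = 0.187 from limma). Itgam, the alpha chain of another such receptor, had a log2 fold change of -0.67 ± 0.21 (SE, adjusted p = 0.243 from limma), both with overlap.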

How the data were processed

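Total RNA of 7 livers was labelled with Cy3 and hybridized to 1-colour Agilent arrays. The intensity values that the authors deposited came from Agilent Feature Extraction 10.5.1.1 with spatial and multiplicative detrending, surrogate values for low signals, no local background subtraction and no normalization between arrays. A log2 table, which the authors deposited after quantile normalization, served as an alternative. Intensities were quantile normalized in R 4.3.3 with limma 3.58.1, leaving out control spots and 120 to 163 flagged spots per array, and log2-transformed. From 44.5% to 48.7% of 55681 probes rose well above background on each array, and 0 spots were saturated. The number of arrays limits the precision. Each gene was read by its probe with the highest mean, tested with lmFit and eBayes if its probe passed background on 3 or more arrays, and adjusted over all 20000 genes. The steps were tested on simulated data. Names came from RefSeq (GRCm38.p6) for 26413 probes, otherwise from the files, as for all complement genes. Probe positions are those of mm9.

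All arrays lay on 1 slide, WT in row 1 and SHIVA in row 2, so place and genotype cannot be told apart. The labels give each array its own mouse. The genes and lists were chosen with earlier results of these data known. Values of every mouse are given for genes that passed the test, separated the groups, changed by a log2 value of 1 or more, or had 1 SHIVA mouse apart. Those of Hc, C4b, C1qa, C1qb, C1qc and Cfp, of the further Masp2 probe and of the other Masp1 probe were added after their values were seen. Proximity on the chromosome was also examined then. A further gene of the pathway is not reported here. The lists looked up beside these genes were hepatocyte, Kupffer cell, neutrophil, adipose, stellate and fibroblast, mesothelial and acute phase genes. The adipose list had 5 of 10 genes tested with a median log2 fold change of -0.11, the stellate and fibroblast list 10 of 10 with -0.02, and the mesothelial list 1 of 5, at 0.06. Alternatives were 75th percentile scaling, the mean signal, normexp with an offset of 50, the authors' table, other filters on dim probes, other probes or their mean, the files' own gene names, weights for arrays, omission of single mice, a block for the replicate number, and the methods' t-test.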

Additional observations from a re-analysis of the deposited data

Results flagged for a closer look

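Dixon's rule for a sample that stands apart was applied to the 4 SHIVA mice in each of the 31 complement genes tested. It picked out 1 gene, where about 1.55 would be picked out by chance. In Cd55 the log2 signal of SHIVA replicate 2 was 7.43, and those of the remaining SHIVA mice lay from 7.07 to 7.10, while WT replicate 1 also stood at 7.43. With 3 mice the WT group was not examined in this way.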

How the results depend on the processing

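The number of complement genes passing the adjusted threshold in limma, 0 as reported, was 1 (C8b) with the mean signal, with normexp, in the authors' table (adjusted p = 0.0147 there) and with a filter on all arrays, and 3 (C8a, C8b and C9) with array weights. It ran from 0 to 2 with each mouse left out, where the 2 without WT replicate 3 were C2 and C8b. Over all genes, 75 of 20000 passed as reported, 141 with the mean signal and in the authors' table, and 71 with normexp. With the filter on all arrays 99 of 17533 passed, with array weights 392 of 20000, and with a mouse left out from 3 to 416, the last without WT replicate 3. The methods' t-test gave 0, with 2299 genes at an unadjusted p under 0.05 against 2668 in limma. The count of genes lower without overlap, 1 as reported, was 0 with the mean signal, normexp and the authors' table, 2 with the mean of all probes and 1 to 3 with a mouse left out. The count higher without overlap was 7 to 9 under the other processing settings and 8 to 17 with a mouse left out. The share of all genes higher without overlap was 5.44% to 6.24% and 7.06% to 14.6% in these settings. The sign turned for C1s (-0.012) and Masp2 (-0.012) with 75th percentile scaling, and for Masp2 with the mean signal (-0.057), normexp (-0.056) and the authors' table (-0.054). It turned for C3ar1 in the same settings (-0.018, -0.053 and -0.019), and for the other Masp1 probe (-0.25). With a mouse left out the log2 fold change ran from -0.12 to 0.47 for C1ra, from -0.20 to 0.30 for C1s, from -0.017 to 0.35 for C6, from -0.0065 to 0.39 for Cfb, from -0.083 to 0.10 for Masp2 and from -0.29 to 0.46 for C3ar1. The cause of these shifts was not tested. With the replicate number as a block 0 complement genes passed, and the median of the hepatocyte-made genes was 0.39. SHIVA replicate 4 has no WT mouse of its number, so the block takes it out of the comparison. The log2 fold changes were those found with that mouse left out. Same-numbered mice correlated at -0.05, 0.01 and 0.24 in their deviations from the group means, and differently numbered mice at -0.20 to 0.20. With so few mice these values cannot decide whether the numbers pair the samples. Of 566 single-gene values under the alternatives, 22 turned sign, 9 passed the threshold anew and 535 kept direction and side. Many of these could not turn sign. The filters on dim probes, the files' own gene names and the methods' t-test leave each log2 fold change unchanged. The mean of all probes does the same for genes with 1 probe. The count of 535 therefore does not measure how stable the directions are.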
